A study of Mus musculus with 2 samples.

Results

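The insulin-like growth factor (IGF) system was followed in the uterus of pregnant mice as 10 genes, which were chosen by symbol from the table of 14678 genes: the ligands Igf1 and Igf2, the receptors Igf1r and Igf2r, and the binding proteins Igfbp2, Igfbp3, Igfbp4, Igfbp5, Igfbp6 and Igfbp7. All 10 were listed in the table, and 9 of them reached 200 copies in the 2 libraries together. Both groups were double transgenic females (VEGFtetO/tetO/beta-AKtg/wt), which carry tet operators in the VEGF promoter and a tetR-Krab repressor driven by the beta-actin promoter in every tissue. Dox+ littermates were kept on chow with 200 mg/kg doxycycline, which releases the repressor, and are labelled VEGF-normal. Dox- littermates were taken off doxycycline at 3 to 4 weeks of age, and their VEGF was repressed. Uteri were taken from mice 9 to 10 weeks old at gestation day 2.5. The RNA of 3 uteri was pooled for each condition and sequenced as 1 library, and copies are the sequence tags that were assigned to a gene. Levels are given as tags per 1000000 clean tags (TPM), with no correction for length unless stated.

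With 1 library per condition there was no replicate spread and no test between the conditions. Intervals are exact 95% intervals that cover counting error only. Doxycycline itself and the level of VEGF cannot be told apart in this design, and the repressor acted in the whole animal. The libraries held 5985925 clean tags for Dox+ and 5844314 for Dox-. Vegfa, the repressed gene, stood at 41.3 TPM in Dox+ and 21.4 TPM in Dox-.

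IGF1 and IGF2 are secreted peptides that promote growth and survival, and both signal through the tyrosine kinase encoded by Igf1r. The receptor encoded by Igf2r has no kinase and carries IGF2 to the lysosome, where it is degraded. Binding proteins hold IGFs outside the cell, and proteases that cut them set the IGFs free. In the rodent uterus Igf1 is known as an estrogen-responsive gene of the stroma, and IGF1 is known to drive growth of the epithelium.

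Among the 9 members with enough copies, the largest differences between the libraries were those of binding proteins. Igfbp3 was 4.35-fold lower in the Dox- library, Igfbp6 2.39-fold lower and Igfbp5 1.51-fold lower, and these were the 3 members past a fold change of 1.5. No member was higher by 1.5-fold. Over all 6547 genes with 200 or more combined copies, 29.9% were past 1.5-fold, 15.2% higher and 14.7% lower in Dox-. The 3 of 9 members past it in either direction are thus a share near that of all genes. All 3 were lower, and all 3 encode binding proteins. At a fold change of 2, only Igfbp3 and Igfbp6 were past it, both lower, beside 10.2% of all genes, 4.61% higher and 5.62% lower. Both ligands were within 1.1-fold of their Dox+ level.

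**Figure D1:**
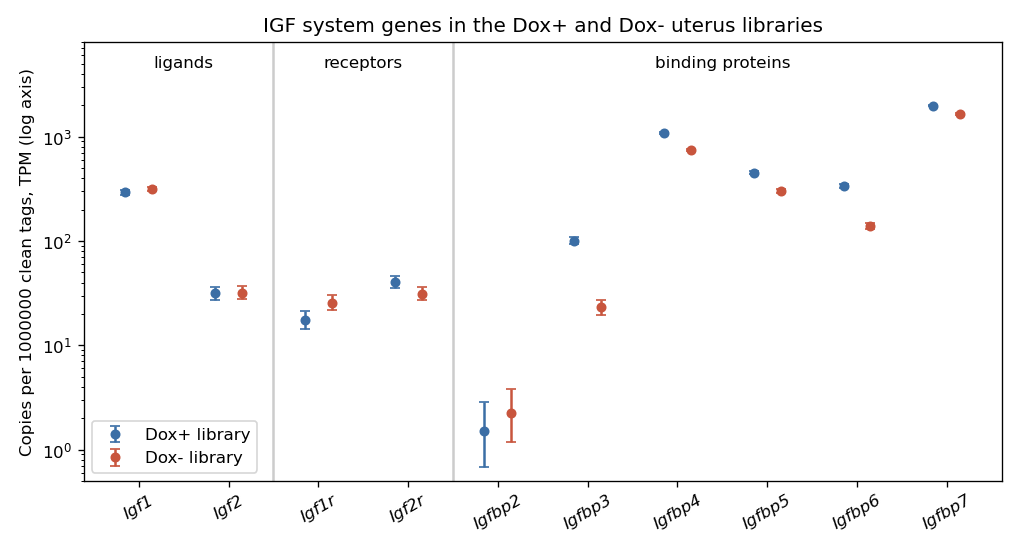
Level in copies per 1000000 clean tags (TPM), on a log axis, of the 10 IGF system genes in the Dox+ library (blue) and the Dox- library (red), 1 pooled library each. Bars are exact 95% Poisson intervals of the counts. The points of Igfbp3 lie farthest apart, at 101 TPM in Dox+ and 23.1 TPM in Dox-, while those of Igf1 lie at 292 and 318 TPM and those of Igf2 at 31.7 and 32.0 TPM.

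Igf1 (chromosome 10, 87321010 to 87399792, plus strand, NCBIM37) had 1749 copies in Dox+ and 1857 in Dox-, equal to 292 and 318 TPM. The Dox- level was 1.09-fold higher (95% interval 1.02 to 1.16). This is a small difference that is just outside counting error when scaled by clean tags, and the spread between pools is not known. The lower end of its log2 interval, 0.026, is below the median log2 ratio over all genes with enough copies, 0.035. Igf2 (chromosome 7, 149836673 to 149852721, minus strand), an imprinted gene, had 190 copies in Dox+ and 187 in Dox-. Its ratio of 1.01 had an interval from 0.819 to 1.24, so a change of up to about that size in either direction was not detectable at this depth. Igf2 copies per 100 Igf1 copies were 10.9 in Dox+ and 10.1 in Dox-, with an odds ratio of 0.927 (0.745 to 1.15). The make-up of the ligand transcripts therefore did not differ beyond counting error.

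Igf1r (chromosome 7, 75097713 to 75371484, plus strand), which encodes the signaling receptor, had 105 copies in Dox+ and 150 in Dox-. It was 1.46-fold higher in Dox- (1.13 to 1.90). Igf2r (chromosome 17, 12875272 to 12962530, minus strand), which encodes the clearing receptor, had 244 copies in Dox+ and 183 in Dox-. It was 1.30-fold lower in Dox- (1.07 to 1.59). Neither passed 1.5-fold, but the receptors went opposite ways. Igf1r copies per 100 Igf2r copies were 43.0 in Dox+ and 82.0 in Dox-, an odds ratio of 1.90 (1.37 to 2.64), which does not depend on the library size. The summed copies of the receptors, 349 and 333, did not differ beyond counting error.

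Igfbp3 (chromosome 11, 7106089 to 7113926, minus strand) encodes the main IGF carrier of the blood, which is also made in many tissues. It had 602 copies in Dox+ and 135 in Dox-, or 101 and 23.1 TPM. The fold change was 4.35 (3.61 to 5.29), and 61 of the 6547 genes had a log2 ratio as low as its -2.12. By the straight-line distance between log2 copies over the 2 libraries, the 3 genes nearest to Igfbp3 were Gstm2, with 594 and 124 copies, Wfdc1, with 579 and 158, and Mab21l3, with 513 and 128. The study lists qPCR primers for Igfbp3, and they are shown to place that assay in the gene.
forward: tgcggctgctgcctgactt
reverse: gccacagcgctccgtgtaga
Both primers matched the NCBIM37 genome at a single place. They bound coding sequence of exon 1 of Igfbp3 and enclosed 69 bases, chr11:7113521-7113589. Where the counted tags lie within Igfbp3 is not given, and no qPCR value was analysed here.

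Igfbp6 (chromosome 15, 101974793 to 101979942, plus strand) encodes the binding protein that prefers IGF2 to IGF1. It had 2001 copies in Dox+ and 819 in Dox-, or 334 and 140.1 TPM. It was 2.39-fold lower in Dox- (2.20 to 2.59), and 202 of the 6547 genes had a log2 ratio as low as its -1.25. Igfbp3 was lower by more than Igfbp6, since Igfbp3 copies per 100 Igfbp6 copies were 30.1 in Dox+ and 16.5 in Dox-, an odds ratio of 0.548 (0.444 to 0.674). Igf2 copies per 100 Igfbp6 copies were 9.5 in Dox+ and 22.8 in Dox-.

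Igfbp5 (chromosome 1, 72904506 to 72921458, minus strand), the product of which binds to the extracellular matrix, had 2710 copies in Dox+ and 1756 in Dox-. It was 1.51-fold lower (1.42 to 1.60), so that its place on either side of 1.5-fold is not settled by the counts. Igfbp4 (chromosome 11, 98902558 to 98913969, plus strand) encodes a binding protein that holds back IGF action until it is cut by pappalysin. It had 6518 copies in Dox+ and 4357 in Dox-, 1.46-fold lower (1.41 to 1.52). Igfbp5 copies per 100 Igfbp4 copies were 41.6 in Dox+ and 40.3 in Dox-, an odds ratio of 0.969 (0.902 to 1.04). These genes were therefore lower to a degree that counting did not separate, although only Igfbp5 passed 1.5-fold. With the copies in the table as library sizes, in place of clean tags, the log2 ratio of Igfbp5 was -0.55 and that of Igf1r 0.59, and the members past 1.5-fold became 2 lower and 1 higher.

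Igfbp7 (chromosome 5, 77778265 to 77837070, minus strand), whose product binds IGFs weakly and is deposited around blood vessels, had the most copies of the 10 genes. It had 11877 copies in Dox+ and 9610 in Dox-, 1.21-fold lower (1.17 to 1.24). Its annotated span overlaps Polr2b on the other strand. Igfbp2 (chromosome 1, 72871077 to 72899048, plus strand) was near the limit of detection, with 9 copies in Dox+ and 13 in Dox-. Its ratio of 1.48 had an interval from 0.585 to 3.92, and a difference was not detectable at this depth. Igfbp2 and Igfbp5 are neighbours 5.46 kb apart, and Igfbp3 lies 3.54 kb from Igfbp1, which was not among the genes of the table.

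**Figure D2:**
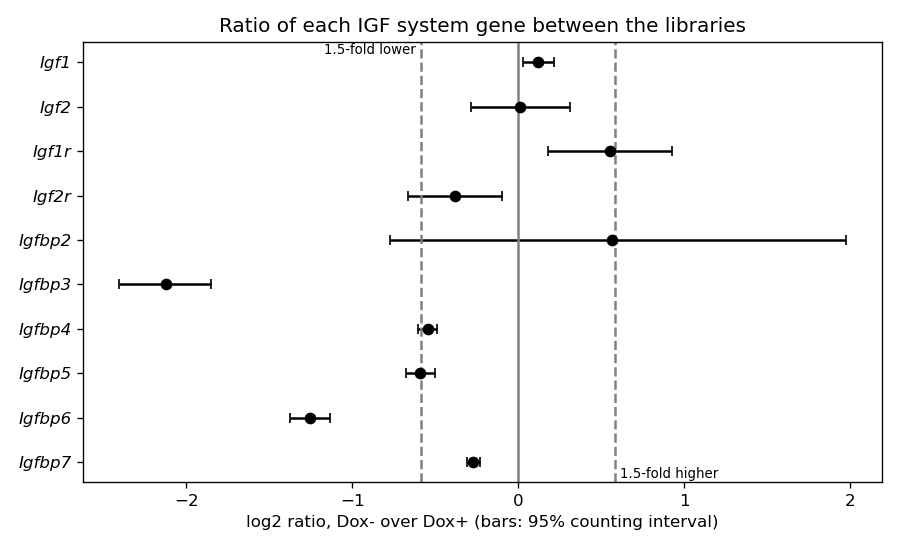
Log2 ratio of each gene, Dox- over Dox+, as points with exact 95% counting intervals, 1 pooled library per condition. Dashed lines mark 1.5-fold in either direction. Igfbp3 at -2.12 and Igfbp6 at -1.25 lie beyond the lower line with their whole intervals, while Igfbp4 and Igfbp5 lie on it at -0.55 and -0.59.

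The 4 binding protein genes with the lowest ratios are shown by the 100 bases before their RefSeq start (GRCm38.p6, coding strand, 5′ to 3′), so that these windows can be compared. Capitals mark matches to TATANA, where N is any base, or to GGGCGG, each searched on both strands. The windows are chr11:7213924-7214023 on the minus strand for Igfbp3, chr15:102144086-102144185 on the plus strand for Igfbp6, chr1:72874866-72874965 on the minus strand for Igfbp5 and chr11:99041144-99041243 on the plus strand for Igfbp4.
Igfbp3: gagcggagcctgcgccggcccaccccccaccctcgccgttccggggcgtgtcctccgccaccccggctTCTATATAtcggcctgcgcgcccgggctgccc
Igfbp6: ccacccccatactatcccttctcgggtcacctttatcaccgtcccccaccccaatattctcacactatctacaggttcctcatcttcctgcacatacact
Igfbp5: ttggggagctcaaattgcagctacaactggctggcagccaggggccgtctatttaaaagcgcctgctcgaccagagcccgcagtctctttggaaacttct
Igfbp4: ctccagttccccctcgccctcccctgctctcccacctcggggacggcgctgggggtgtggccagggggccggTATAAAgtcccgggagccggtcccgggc
Igfbp3 held TATANA in overlapping matches on both strands from 32 bases before the start, and Igfbp4 held it at 28 bases. Igfbp5 and Igfbp6 held neither motif in these windows. The Igfbp5 window does hold tatttaaaa, which TATANA cannot match. On NCBIM37 the Igfbp5 window, 72921440 to 72921539, runs into the GENCODE gene, which begins at 72921458 on the minus strand. The Igfbp6 window, 101974517 to 101974616, ends before the GENCODE start at 101974793. For these genes the absence of a motif thus holds for the RefSeq start only. TATANA occurred in 9.48% and GGGCGG in 24.7% of the 32851 promoter windows of this length. The windows differed in base composition, with 77% G and C in Igfbp3, 75% in Igfbp4, 55% in Igfbp5 and 51% in Igfbp6, beside a median of 55% over all windows. Neither motif was thus found in all 4 windows.

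Levels of different genes were compared per kb of the longest annotated transcript. On this scale Igfbp7 stood first in both libraries, at 1636 TPM per kb in Dox+ and 1356 in Dox-. Igfbp4 followed with 520 and 356, Igfbp6 with 301 and 126, and Igfbp5 with 75.4 and 50.0. In Dox+, Igfbp3 at 41.5 and Igf1 at 41.0 did not differ beyond counting error, and in Dox- Igf1 at 44.6 stood above Igfbp3 at 9.54. Igf2, at 6.72 and 6.78, and the receptors, between 3.52 and 6.14, were lower than Igf1 in both libraries. Igfbp2 was the lowest, at 1.15 and 1.70. The order between genes depends on this scale, and the study describes tag profiling, where counts need not grow with length. Without the division by length, Igf1 at 292 TPM stood above Igfbp3 at 101 TPM in Dox+, and Igfbp5 at 453 TPM above Igfbp6 at 334 TPM.

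All binding proteins together held 23717 copies in Dox+ and 16690 in Dox-, a level 1.39-fold lower in Dox- (1.36 to 1.42). Without Igfbp7 the sum was 1.63-fold lower (1.59 to 1.68). The share of Igfbp7 among the copies of binding proteins was 50.1% (exact binomial interval 49.4 to 50.7) in Dox+ and 57.6% (56.8 to 58.3) in Dox-. The share of Igfbp6 was 8.44% in Dox+ and 4.91% in Dox-, and that of Igfbp3 was 2.54% and 0.809%. Igfbp4, at 27.5% and 26.1%, and Igfbp5, at 11.4% and 10.5%, kept nearer to their shares. Per kb of transcript, Igfbp7 held 63.5% in Dox+ and 71.4% in Dox-.

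**Figure D3:**
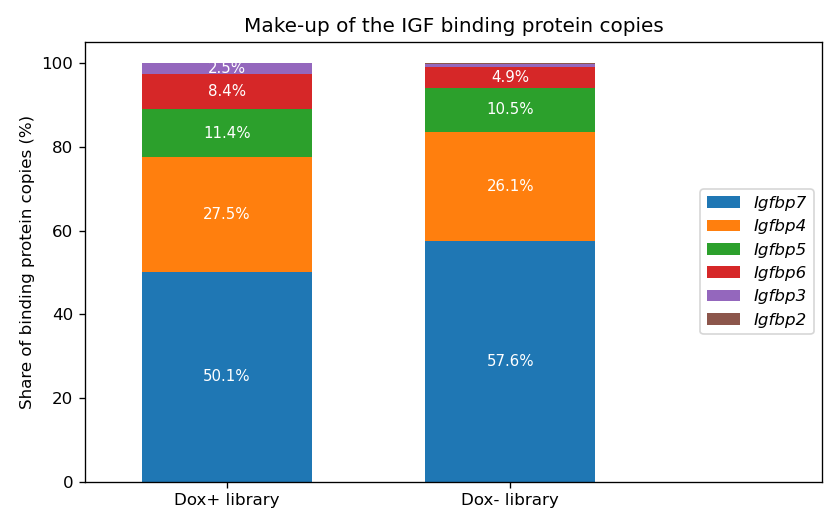
Share of each gene, in percent, among the copies of the 6 binding protein genes in the Dox+ and the Dox- library. Igfbp7 takes 50.1% in Dox+ and 57.6% in Dox-, and the bands of Igfbp6 and Igfbp3 are narrower in Dox-.

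For each 100 binding protein copies, 8.18 ligand copies were counted in Dox+ and 12.2 in Dox-. The odds ratio was 1.5 (1.40 to 1.60), and 1.76 (1.64 to 1.89) when Igfbp7 was left out. For Igf1 against Igfbp3 alone, 291 and 1376 Igf1 copies were counted per 100 Igfbp3 copies. These are ratios of transcripts and not of proteins.

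The uterus is made of several tissues, and lists of their markers were summed in each library. In such bulk samples fewer cells of a type and less RNA per cell cannot be told apart. All 8 genes of the list that marks the uterus had copies in both libraries, of which Ltf, Pgr, Wnt7a and Esr1 were past 1.5-fold higher in Dox- and Hoxa10 and Hoxa11 lower. The list holds Ovgp1, best known from the oviduct, with 25 copies in Dox+ and 2 in Dox-, 12.2-fold lower (3.04 to 106). All 10 smooth muscle markers had a lower level in Dox-, with Mylk, Cnn1, Des, Smtn and Lmod1 past 1.5-fold. Their sum was 9653 TPM in Dox+ and 6675 TPM in Dox-, a log2 ratio of -0.53. Of all 14678 genes, 6981 had a log2 ratio below 0, and of those with enough copies 14.7% were past 1.5-fold lower. The sum of 10 endothelial markers was 248 TPM in Dox+ and 174 TPM in Dox-, a log2 ratio of -0.51, and of the 4 with enough copies Cdh5 and Tie1 were past 1.5-fold lower and Pecam1 and Vwf were not. Of the 10, 7 had a lower level in Dox- and 3 a higher one, namely Pecam1, with 243 and 253 copies, Eng, with 92 and 104, and Kdr, with 10 and 17. Without Cdh5, which had 446 and 216 copies and was left out after these were seen, the log2 ratio of the sum was -0.34. The log2 ratios of Igfbp4 and Igfbp5, -0.55 and -0.59, were near those of the sums over all markers, and the log2 ratios of Igfbp3 and Igfbp6 were below them. The part of these cell types in the result was not tested.

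Stromal markers differed among themselves. Their sum was 9075 TPM in Dox+ and 11803 TPM in Dox-, with Col1a2, Lum and Col6a4 past 1.5-fold higher and Vim and Hand2 lower. Much of that sum is collagen, with Col1a1 at 3845 and 5766 TPM and Col1a2 at 801 and 1647 TPM. Of the 10 stromal markers, 5 had a higher level in Dox- and 5 a lower one, with a median log2 ratio of 0.13. Hand2, a transcription factor of the uterine stroma, had 985 copies in Dox+ and 143 in Dox-. The sum of the epithelial markers was 1228 TPM in Dox+ and 1673 TPM in Dox-, with Cldn7, Epcam, Krt7 and Wnt7a past 1.5-fold higher and Cldn3 lower. Macrophage and leukocyte markers summed to 412 and 631 TPM, with Lyz1 and Mrc1 past 1.5-fold higher. Much of that sum is Lyz1, at 296 and 465 TPM. Of the 10 in the table, 8 had a higher level in Dox- and 2 a lower one, namely Csf1r, with 186 and 181 copies, and Cd163, with 18 and 8. Adipocyte markers summed to 289 and 212 TPM, with Adipoq past 1.5-fold lower. Blood markers, mainly Hba-a1, Hba-a2 and Alas2, summed to 11.03 and 35.6 TPM, and none had enough copies for a comparison. Hba-a1, with 26 and 114 copies, and Hba-a2, with 19 and 82, had a higher level in Dox-, and Alas2, with 21 and 9, a lower one. Of the liver markers only Ttr was listed, with 47 copies in Dox+ and 0 in Dox-, where 3 copies, the floor set for a count of 0, equal 0.513 TPM. None of the smooth muscle, endothelial, stromal, epithelial, leukocyte or adipocyte markers in the table was at 0 in either library. Their part in the values of the IGF genes was not tested.

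Genes that act around the IGF system were taken from 12 lists, of which 107 genes other than the 10 were in the table and 69 had enough copies. Of the 69, 11 were past 1.5-fold higher and 10 lower, 30.4% in all, beside 29.9% of all genes. Their median log2 ratio was 0.13, against 0.03 over all genes. The lists as a whole thus stood near the background, and individual genes are given for their values.

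The list of proteases taken to cut binding proteins, and of the inhibitors of these, showed the widest range of the 12 lists. Of 7 with enough copies, 3 were higher and 3 lower past 1.5-fold, and the median log2 ratio was 0.19. Ctsd, the lysosomal protease cathepsin D, had 8497 copies in Dox+ and 1872 in Dox-, 4.43-fold lower (4.21 to 4.66). Mmp2, a gelatinase of the matrix, had 3962 and 2006 copies, and Htra3, a serine protease, 909 and 455. Htra1, a related serine protease that carries an IGFBP-like domain, went the other way, with 1172 copies in Dox+ and 2054 in Dox-. Adam12, a metalloprotease that cuts Igfbp3 and Igfbp5 proteins, had 339 and 936 copies and was 2.83-fold higher (2.50 to 3.21). Prss23, a serine protease of the list, had 447 and 1230 copies, and whether it cuts binding proteins was not tested. The pappalysin gene Pappa had 37 and 32 copies, too few for a comparison.

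**Figure D4:**
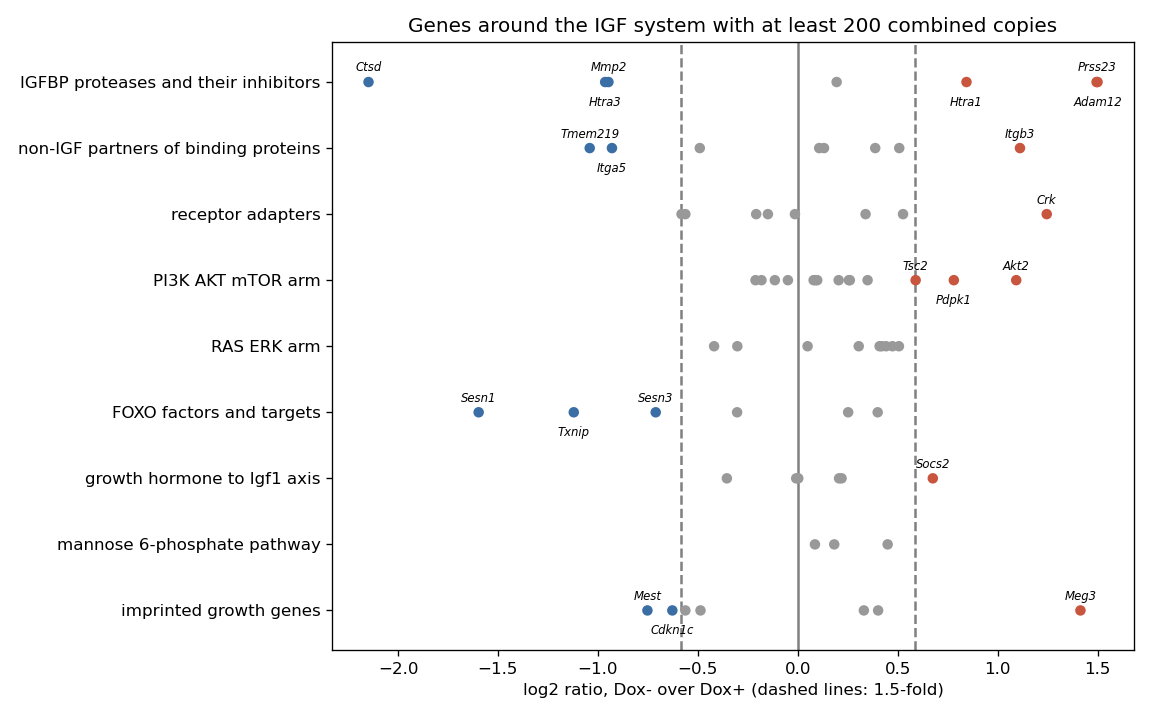
Log2 ratios, Dox- over Dox+, of genes around the IGF system with at least 200 combined copies, 1 point per gene and 1 row per list, for the 9 lists with 3 or more such genes counted here. Red points are past 1.5-fold higher, blue points past 1.5-fold lower and gray points between the dashed lines. The proteases reach from -2.15 (Ctsd) to 1.5 (Adam12), while no plotted gene of the RAS ERK arm is past a line.

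Among the partners of binding proteins at the cell surface and in the matrix, 1 of 8 was higher and 2 were lower past 1.5-fold, with a median log2 ratio of 0.12. Tmem219, which encodes a receptor for Igfbp3 protein, had 137 copies in Dox+ and 65 in Dox-, 2.06-fold lower (1.52 to 2.81). Itga5, the fibronectin receptor subunit, had 640 and 328 copies. Itgb3, the beta subunit that pairs with the alpha V integrin, had 255 and 538. The receptor genes of binding proteins thus moved in both directions.

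Insr, the insulin receptor and closest relative of Igf1r, had 78 copies in Dox+ and 136 in Dox-, and was 1.79-fold higher (1.34 to 2.39). It was the only gene of the list of other ligands, receptors and carriers with enough copies. The GO column of the table assigns IGF binding to 7 genes, which are Insr and 6 of the 10 members. That term was looked up after the values were known. Of the receptor adapters, Crk had 181 and 419 copies, 2.37-fold higher (1.99 to 2.84), and the other 7 with enough copies were not past 1.5-fold, with a median over the list of -0.08.

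Downstream, the PI3K AKT mTOR arm had 3 genes past 1.5-fold higher among the 14 counted here, with a median of 0.15. Akt2, a kinase best known from the insulin response, had 194 copies in Dox+ and 404 in Dox-, 2.13-fold higher (1.79 to 2.54). Pdpk1, the kinase that activates AKT, had 124 and 208 copies, and Tsc2, a brake on mTOR, 341 and 501. The intervals of Pdpk1 (1.37 to 2.16) and Tsc2 (1.31 to 1.73) include 1.5, so the counts do not settle on which side of it these genes lie.

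None of the 9 genes compared in the RAS ERK arm was past 1.5-fold, and their median was 0.41. Those with the most copies were Map2k2, with 1628 and 1189, Mapk3, with 582 and 789, and Araf, with 597 and 603. Among the FOXO transcription factors, which AKT holds back, and their targets, 3 of 6 were lower past 1.5-fold, with a median of -0.51. Sesn1, a stress-induced sestrin, had 316 copies in Dox+ and 102 in Dox-, 3.02-fold lower (2.41 to 3.82). Txnip, an inhibitor of thioredoxin and of glucose uptake, had 1586 and 712 copies, and Sesn3 171 and 102. For Sesn3 the interval of the fold (1.27 to 2.11) includes 1.5. Foxo1 itself had 191 and 246 copies.

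In the axis from growth hormone to Igf1, 1 of 6 genes was past 1.5-fold. This was Socs2, a feedback inhibitor of growth hormone signaling, with 202 copies in Dox+ and 315 in Dox-, 1.60-fold higher (1.33 to 1.92). The median of this list was 0.10. Of the imprinted growth genes, 1 of 7 was higher and 2 were lower, with a median of -0.49. Meg3, a maternally expressed noncoding RNA, had 103 and 268 copies, 2.67-fold higher (2.12 to 3.38). Mest had 245 and 142 copies, and Cdkn1c, an inhibitor of cyclin-dependent kinases, 326 and 206. For Mest (1.36 to 2.09) and Cdkn1c (1.29 to 1.85) the interval of the fold includes 1.5. Igf2 and Igf2r, themselves imprinted, were not past 1.5-fold, nor did H19, the noncoding neighbour of Igf2, have enough copies, with 62 and 85.

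The genes that build and read the mannose 6-phosphate tag, which Igf2r also binds, were not past 1.5-fold, with a median of 0.18 over 3 genes. M6pr had 380 and 421 copies, Gnptg 166 and 172, and Gnptab 126 and 168. Of the CCN family, matrix proteins with an IGFBP-like domain, only Wisp1 had enough copies, with 110 and 94. Cyr61 had 67 and 101 copies and Ctgf 47 and 109. Igf2bp2, which binds Igf2 mRNA, had 35 and 65 copies, below the number needed for a comparison.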

How the data were processed

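Uterus RNA of 1 Dox+ and 1 Dox- library, each a pool of 3 uteri, was profiled by sequence tags. The authors removed adaptor-only tags, low quality tags and tags seen once, matched clean tags to mouse reference transcripts (mm9) and deposited the counts of unambiguous tags per gene. The TPM values were scaled by the authors to 1000000 clean tags with no correction for length, and a gene without a tag carries 0.01. The submitters' processing notes name CASAVA, and the restriction enzyme and aligner are not given in the sources used here. The labels mention mRNA fragmentation, and the paper tag profiling, so levels between genes were compared per kb of the longest GENCODE coding transcript. The authors' ratios, P-values and FDR were not used.

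Library sizes were the clean tags that return every deposited TPM from its count. Ratios carry exact Clopper-Pearson intervals, taken from how the counts of a gene divide between libraries, levels carry Poisson intervals, and ratios of 2 genes are conditional odds ratios. Genes with at least 200 combined copies were compared at a fold change of 1.5, and a count of 0 was set to 3. Past 1.5-fold refers to the ratio itself, and the interval of some genes so named includes 1.5. The code was tested on simulated data. Named genes were all members, Vegfa, the listed genes past 1.5-fold or otherwise the 3 with the most copies, and the 3 genes nearest to the member with the largest change. The listed genes Foxo1, H19 and Pappa were added after their values were seen, and 2 listed genes are not reported here and were left out of the counts. The members and lists were chosen with earlier results of these data known. Promoters came from RefSeq (GRCm38.p6), where all 10 members matched, and positions from GENCODE on NCBIM37. The annotated spans of Igf1, Igf2, Igf2r and Igfbp7 overlap other genes. The study analysed antisense tags apart from sense tags, and the deposited table does not say which its counts hold. Its genes with a tag, 14050 in Dox+ and 13948 in Dox-, are as many as the study's gene expression classes hold. The study gives fewer genes with antisense transcripts. Python 3.11.15, numpy 2.4.6, scipy 1.17.1, pandas 2.3.3, matplotlib 3.10.9, R 4.3.3 and edgeR 4.0.16 (TMM and median-of-ratios factors only) were used.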

Additional observations from a re-analysis of the deposited data

How the results depend on the processing

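With an absolute log2 ratio above 0.5 in place of 1.5-fold, 5 members were past the threshold, 4 lower and 1 higher, with Igfbp4 and Igf1r added to Igfbp3, Igfbp5 and Igfbp6, beside 36.6% of all genes, 17.8% lower and 18.8% higher. The copies in the table as library sizes kept the count at 3 but took out Igfbp5 and brought in Igf1r. The ratio of summed binding protein copies, Dox- over Dox+, was 0.721, and 0.738 per kb of transcript and 0.612 without Igfbp7. The odds ratio of ligands to binding proteins was 1.5, and 1.76 without Igfbp7. Of the genes around the system, 21 of 69 were past 1.5-fold, 36 of 97 (37.1%) with at least 20 combined copies and 39 of 104 (37.5%) when only genes with 3 or fewer copies in both libraries were left out, beside 38.4% and 42.0% of all genes at those settings. The other 15 of 21 alternatives for these summaries, and all 40 for the log2 ratios of single members, gave values within the counting interval or within 1.5 times the count. TMM and median-of-ratios factors shifted every log2 ratio by -0.02 and -0.03. Adding the Audic-Claverie FDR removed no member, but that test compares these libraries, not the conditions. No paired analysis was possible because each condition has 1 library, and no library could be left out. Depth limited Igfbp2, and the unknown spread between pools limits every ratio.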
